A study of Oryza sativa with 10 samples.

Results

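Regions of the rice genome that were captured under the in vitro label by both BioCyTASQ and the list deposited for BioTASQ, and that held no BioTASQ in vivo peak, numbered 3913. Distinct rows of these 3 peak lists were pooled, rows that overlapped by at least 1 bp were merged, and each merged region with rows of both in vitro lists and none of the in vivo list was kept. They made up 4.45% of the 87915 merged regions. The regions were thus chosen by the measured peaks themselves, so their number and the fold enrichments, q values and fragment levels given below are descriptions without a test.

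The study compared BG4, an antibody, with small-molecule baits for pulling down G-quadruplex DNA from 2-week-old Nipponbare rice seedlings cross-linked with 1% formaldehyde for 10 min. Each of the 3 captures (in vitro with either bait, in vivo with BioTASQ) had 2 libraries, and no library was labelled BG4. Controls were biotin alone and input, with 1 library of each for in vitro and 1 of each for in vivo, which makes 10 libraries in 7 groups. Seedlings of 1 cultivar, fixed in the same way, are described for every group, and the labels set the groups apart only by bait and by the words vitro or vivo. There was 1 list per capture and none per library, so no value has an error between replicates, and the spread over the 12 chromosomes (SD) is given in its place.

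G-quadruplexes are stacks of square guanine quartets that guanine-rich strands can fold into, held together by hydrogen bonds and by potassium ions in the centre. TASQ baits are small molecules built from guanine units that can close into a quartet of their own and stack on the end of such a structure, and their biotin lets streptavidin beads pull the DNA down. BG4 is an antibody fragment raised to bind the same structures. In living cells nucleosomes and other proteins compete for the same DNA, which is why captures made in vitro and in vivo are commonly set side by side.

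The lists deposited under the names BG4 and BioTASQ in vitro were identical in all 29469 rows, and the rows do not settle which capture they belong to. The name BG4/BioTASQ in vitro list is used for them here. Its overlap with BioCyTASQ may be that of a bait and the antibody, and cannot be read as agreement between TASQ baits. Peak names in the BioCyTASQ and in vivo lists hold the word biotin, and those in the BG4/BioTASQ in vitro list hold K, PEG and flag. No source used here names the control behind each list, so whether lists share a control was not tested. The lowest −log10 q was 1.31 for BioCyTASQ, 3.0 for the BG4/BioTASQ in vitro list and 3.01 for the in vivo list. Coordinates are counted from 1 and follow the lists' own build, for which no source used here gives a name. Genes and sequence at these coordinates were not analysed here.

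Most of the 3913 regions were simple pairs of 1 peak from each list. A single BioCyTASQ row met a single BG4/BioTASQ row in 3758 regions (96.0%), and 6 regions held 4 rows or more. The regions took up 3932 BioCyTASQ rows, 7.88% of that list, and 4056 BG4/BioTASQ rows, 13.8% of the other. They covered 2.26 Mb, with a median width of 471 bp and middle values from 366 to 676 bp (quartiles). Regions held by all lists were wider, with a median of 801 bp, and regions of BioCyTASQ alone were narrower, with a median of 309 bp.

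The rows of a pair never covered exactly the same stretch, and most overlapped only in part. Their overlap had a median of 180 bp, where the BioCyTASQ row had a median width of 385 bp and the BG4/BioTASQ row one of 235 bp. The BG4/BioTASQ row lay wholly inside the BioCyTASQ row in 1416 regions (36.2%), and the reverse held in 279 (7.13%). In the other 2218 regions the rows overlapped in part, with the BG4/BioTASQ row reaching out to the left in 1122 and to the right in 1096. The rows thus reached out to either side about equally often.

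The summits, the points of highest fragment number, lay close together. In the 3794 regions whose BioCyTASQ summit fell inside its row, the summits were a median of 105 bp apart, and 1195 pairs (31.5%) lay within 50 bp. In the 7532 regions of all lists with such summits and overlapping in vitro rows, the median was 166 bp and 16.6% lay within 50 bp. BioCyTASQ rows were narrower in the in vitro-only regions, so the shares were also taken at like row width. For BioCyTASQ rows under 300 bp they were 39.5% and 26.9%, for rows of 300 to 400 bp 33.1% and 23.6%, and for rows of 400 to 600 bp 29.7% and 18.5%. In rows of 600 bp or more the share within 50 bp was 21.8% against 12.3%, but the median distance was larger in the in vitro-only regions, 263 against 214 bp. These differences between kinds of region were not tested.

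**Figure D1:**
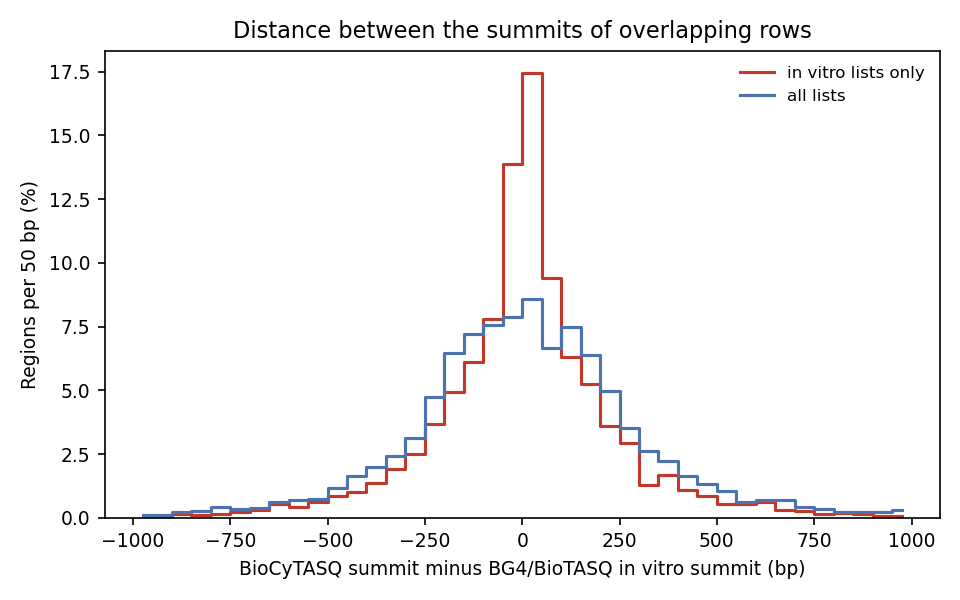
Position of the BioCyTASQ summit relative to the summit of the overlapping BG4/BioTASQ in vitro row, in 50 bp steps (x axis, bp), as a share of the regions of each kind (y axis, %). The red line (3794 in vitro-only regions) has its peak at 0 to 50 bp, with 17.4% of regions. Around 0 it stands above the blue line (7532 regions held by all lists).

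By fold enrichment, the authors' ratio of a peak to its control, the in vitro-only regions were weak in both lists. Their median BioCyTASQ fold was 2.99 (quartiles 2.46 and 3.65), against 3.78 in regions of all lists, 3.31 in regions of BioCyTASQ alone and 5.10 in regions of BioCyTASQ and BioTASQ in vivo. Their median BG4/BioTASQ fold was 4.35 (quartiles 3.74 and 5.14), against 4.96 in regions of all lists and 4.84 in regions of that list alone. Medians per chromosome had an SD of 0.0559 for BioCyTASQ and 0.0807 for BG4/BioTASQ folds (n = 12 chromosomes).

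Few regions were strong in both lists. By fold, 272 regions (6.95%) stood in the upper 50% of both lists and 2076 (53.1%) in the lower 50% of both, and 0 stood in the top 10% of both. Across the 3913 regions the folds of the 2 lists had a Spearman rho of −0.029, and the −log10 q values one of 0.158. In regions of all lists these were −0.065 and −0.088, so folds were nearly unrelated there too. These are correlations across regions of the same libraries, given as a description.

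The number of fragments behind the BioCyTASQ peaks set the in vitro-only regions further apart from regions of all lists than the fold did, though not from regions of BioCyTASQ alone. The pileup, the fragment number at the summit, and the control level, the fragment number that the peak caller expected there, were recovered from the deposited fold and −log10 p. The median pileup was 42 fragments in the in vitro-only regions, 38 in regions of BioCyTASQ alone, 76 in regions of BioCyTASQ and BioTASQ in vivo and 110 in regions of all lists. The median control level was 12.8 fragments in the in vitro-only regions, 9.77 in regions of BioCyTASQ alone, 12.4 in regions of BioCyTASQ and BioTASQ in vivo and 26.3 in regions of all lists.

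Of the 11889 regions that held both in vitro lists, 3913 or 32.9% (SD 2.1, n = 12 chromosomes) had no in vivo row. Ranked by BioCyTASQ pileup in 5 groups of equal size, that share was 88.0% (SD 2.25) in the lowest group, 53.8% in the second, 16.7% in the third, 2.35% in the fourth and 3.70% (SD 2.26) in the highest. By BioCyTASQ fold it was 46.1% (SD 4.44) in the lowest group and 12% (SD 2.0) in the highest. By BG4/BioTASQ fold it was 42.2% (SD 3.84) and 15.8% (SD 2.75). The lowest group held 2092 of the 3913 in vitro-only regions by pileup, 1096 by BioCyTASQ fold and 1003 by BG4/BioTASQ fold. By region width it was 69.5% (SD 3.64) in the narrowest group and 12.2% (SD 3.35) in the widest. The width of a region of all lists takes in its in vivo row, so width is not independent of the absence. All these shares also count regions whose in vitro rows met only through an in vivo row, which could not be in vitro-only. Of the 7976 regions of all lists, 7548 had in vitro rows that overlapped each other. Fragment number, folds and width all moved with the absence of an in vivo row. The part of each in that absence was not tested.

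At the very top of both in vitro lists by −log10 q, in vitro-only regions were frequent, but not further down. Of the 10 BioCyTASQ rows with the highest −log10 q, 9 lay in them, and so did 17 of the top 20, 25 of the top 50 and 30 of the top 100. Of the 10 BG4/BioTASQ rows with the highest −log10 q, 8 lay in them, and 15 of the top 20, 32 of the top 50 and 39 of the top 100. Among the top 1000 rows they held 44 (4.4%) and 88 (8.8%), below the 7.88% and 13.8% of the whole lists given above. In the BG4/BioTASQ list, 49 of the top 50 and 90 of the top 100 rows lay in regions without an in vivo row, so many of them belonged to regions of that list alone. These counts and the limit of 100 fragments below were chosen after the values were seen.

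A single region on chromosome 6, 56078 to 56604, had the highest −log10 q of both lists. Its BioCyTASQ row had a −log10 q of 3728.5, a fold of 5.70 and 9375 fragments over a control level of 1643, and its BG4/BioTASQ row had a −log10 q of 514.2 and a fold of 2.96. The nearest in vivo row was 5.69 kb away. A moderate fold over a very high control level was common to these regions. On chromosome 5, the region at 29907726 to 29907942 had a BioCyTASQ fold of 4.91 with 2308 fragments over 469.5, and a BG4/BioTASQ fold of 3.25. On chromosome 9, the region at 2494803 to 2495165 had 3.71 with 1484 fragments over 399.6, and a BG4/BioTASQ fold of 6.0.

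**Figure D2:**
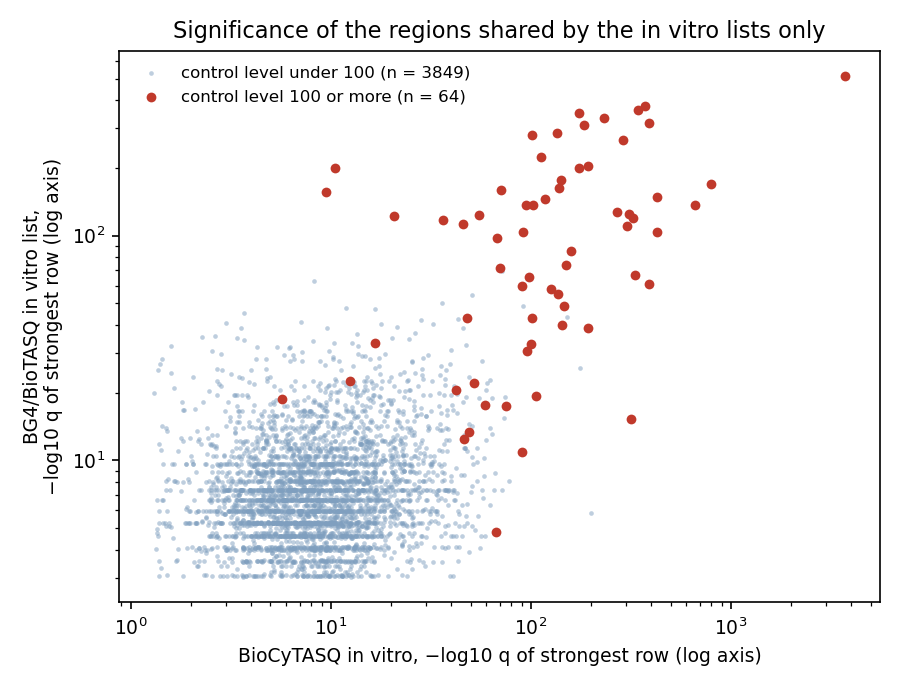
Each point is 1 of the 3913 in vitro-only regions, by the −log10 q of its strongest BioCyTASQ row (x axis, log scale) and of its strongest BG4/BioTASQ in vitro row (y axis, log scale). The 64 regions with a BioCyTASQ control level of 100 fragments or more (red) have medians of 115.1 and 107.2 and reach 3728.5 and 514.2 at the upper right, with a few as low as 5.72 and 4.79. The other 3849 (blue) form a cloud with medians of 8.23 and 6.66.

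Among regions of both in vitro lists, those without an in vivo row were frequent at both ends of the control level. They made up 951 of 1067 regions of both in vitro lists (89.1%) at a BioCyTASQ control level under 10 fragments, and 2308 of 4485 (51.5%) at 10 to 20. The share was 573 of 5800 (9.88%) at 20 to 50 and 17 of 466 (3.65%) at 50 to 100. At 100 fragments or more it was 64 of 71 (90.1%). The fall with control level thus turned round at the top. Regions whose in vitro rows met only through an in vivo row are counted in these shares too. As a share of all regions with a BioCyTASQ row, in vitro-only regions were 5.94% under 10 fragments, 10.4% at 10 to 20, 5.49% at 20 to 50, 2.99% at 50 to 100 and 78.0% (64 of 82) at 100 or more. Of the in vitro-only regions themselves 59.0% lay at 10 to 20 fragments and 1.64% at 100 or more.

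**Figure D3:**
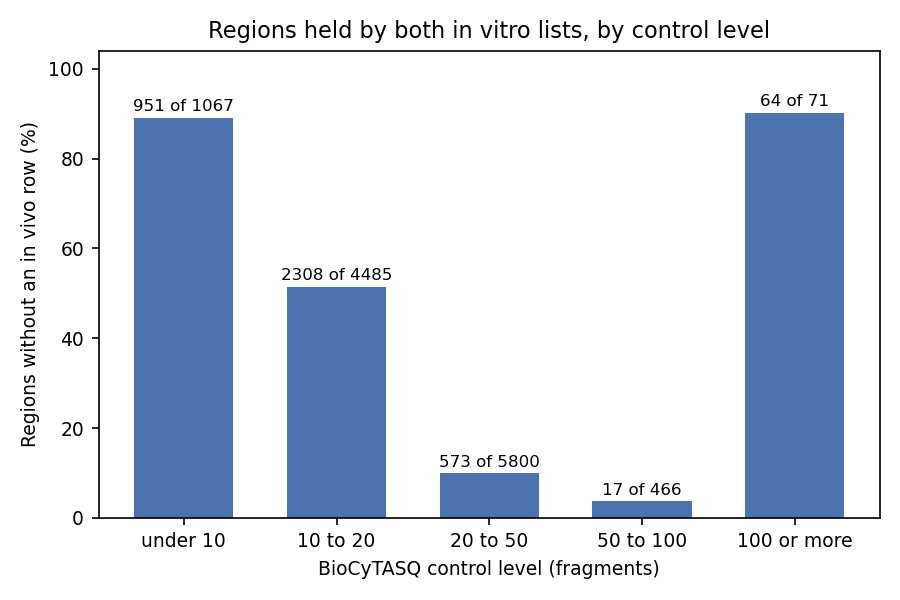
Share of the regions held by both in vitro lists that had no in vivo row (y axis, %), by the control level of the strongest BioCyTASQ row (x axis, fragments), with the counts above the bars. The share falls from 89.1% under 10 fragments to 3.65% at 50 to 100 and is 90.1% at 100 or more.

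The 64 regions of high control level lay on 11 of the 12 chromosomes, and many lay close together. Their median control level was 358.7 fragments and their median pileup 924, with folds of 1.33 to 6.13 in the BioCyTASQ list and 1.54 to 6.0 in the other. Joined within 100 kb, 8 lay on chromosome 4 between 9105137 and 9196695, 8 on chromosome 10 between 10859782 and 10919905, and 6 on chromosome 6 within 14.8 kb (23573473 to 23588305). A further 6 lay on chromosome 8 within 17.7 kb (9262738 to 9280474). The groups on chromosomes 4 and 8 also held 2 of the 3 longest runs of in vitro-only regions with no other kind of region between them, each of 5 regions.

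These regions stood far from any in vivo row. Their median distance to the nearest in vivo row was 13.2 kb, from 0.549 to 43.2 kb, against 1.21 kb for the other 3849. The BioCyTASQ list had 83 rows with a control level of 100 fragments or more, and the in vivo list had 3. The lowest control levels of these lists were 8.14 and 15.7 fragments, so the same limit is not a like one for both. The part of the control level in the absence of in vivo rows was not tested, and what lies at these places was not analysed here.

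Ranked by fold in both lists together, the strongest in vitro-only region of each chromosome had BioCyTASQ folds of 4.05 to 9.63 and BG4/BioTASQ folds of 5.89 to 8.58. Of these 12, only 6 were still in vitro-only at 50% reciprocal overlap and 7 with windows of 200 bp at the summits. With such windows at the centres, or with an overlap of 50% of the shorter row, 8 were, and in the other settings 11 or 12. On chromosome 11, the region at 18967960 to 18968286 had 7.66 and 8.0, with summits 25 bp apart and 69 fragments over a control level of 8.14. On chromosome 5, the region at 5135693 to 5135983 had 9.15 and 6.65, with summits 7 bp apart and 125 fragments over 12.8. On chromosome 4, the region at 15162838 to 15163168 had 9.63 and 6.19, with summits 10 bp apart and 87 fragments over 8.14. These 3 were narrow, between 291 and 331 bp, and their summits nearly met.

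The summits met at 0 bp on chromosome 1 (13731074 to 13731830) and lay 15 bp apart on chromosome 12 (9416147 to 9416505), and the other 7 had summits 70 to 523 bp apart. On chromosome 6, the region at 9703420 to 9703827 had folds of 7.03 and 8.14 and summits 141 bp apart. On chromosome 9, the region at 15047292 to 15047855 had 5.85 and 8.58, with summits 181 bp apart. On chromosome 10, the region at 7793799 to 7794613 had a BioCyTASQ fold of 4.05 with 160 fragments over 38.7, and a BG4/BioTASQ fold of 7.65. It was the lowest BioCyTASQ fold and the highest control level of the 12. The remaining 6, on chromosomes 1, 2, 3, 7, 8 and 12, had BioCyTASQ folds of 5.48 to 7.06 and BG4/BioTASQ folds of 5.89 to 8.14.

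The regions with most rows and the longest regions differed in fold among themselves. On chromosome 2, the region at 10710335 to 10711743 held 2 BioCyTASQ and 3 BG4/BioTASQ rows, with highest folds of 2.61 and 5.65. On chromosomes 1 (14160153 to 14161460) and 3 (13459623 to 13461374), 1 BioCyTASQ row met 3 BG4/BioTASQ rows, with BioCyTASQ folds of 4.47 and 3.44 and BG4/BioTASQ folds of 4.39 and 6.13. The longest regions were 3346 bp on chromosome 12 (13832691 to 13836036), 3301 bp on chromosome 5 (29920282 to 29923582) and 3232 bp on chromosome 3 (30973627 to 30976858). In all 3 the summits were over 2 kb apart, at 2162, 2198 and 2695 bp, and the rows overlapped by 285, 140 and 138 bp. Their BioCyTASQ folds of 4.37, 4.10 and 4.27 lay above the upper quartile of the in vitro-only regions, and their BG4/BioTASQ folds were 3.20, 3.90 and 3.06, of which the first and the last lay below the lower quartile.

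Along the genome, in vitro-only regions were found in each of the 367 complete 1 Mb windows, from 1 to 41 per window with a median of 9. Chromosome 12 had the most per Mb, 13.1, and chromosomes 1, 2 and 3 the fewest, 7.90, 7.85 and 7.80, with a mean of 10.8 ± 1.93 (SD, n = 12 chromosomes). As a share of all merged regions they ran from 3.34% on chromosome 1 to 5.69% on chromosome 12. The windows with the highest share were 9 to 10 Mb on chromosome 7 (41 of 310 regions, 13.2%), 9 to 10 Mb on chromosome 4 (25 of 192, 13%) and 14 to 15 Mb on chromosome 7 (34 of 267, 12.7%). The lowest was 19 to 20 Mb on chromosome 2, with 1 of 221 (0.452%). Windows rich in them were rich in regions with BioCyTASQ rows (Spearman rho 0.704 across 367 windows), with BG4/BioTASQ rows (rho 0.719) and of all lists (rho 0.716), and showed little relation to the number with an in vivo row (rho 0.045). These correlations are descriptions, since windows share libraries and depth and the first 2 counts include the in vitro-only regions themselves. The counts of all lists and of regions with an in vivo row leave them out by the rule. Regions of all lists, which the in vivo count includes, had a rho of 0.274 with it.

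The middle of the chromosomes held more of them than the ends. With each chromosome divided into 10 equal parts, the fourth part held 16.1% ± 4.73 and the fifth 15.4% ± 3.35 of the in vitro-only regions, against 5.57% ± 1.96 in the last (mean ± SD, n = 12 chromosomes). All merged regions were spread more evenly, between 9.09% and 10.8%. In the outer 20% of a chromosome, 10% at each end, lay 547 in vitro-only regions or 14.0%, against 18.5% of all merged regions. Regions of all lists leaned towards the middle too. The mean over chromosomes was 13.9% (SD 3.18) for in vitro-only regions and 14.1% (SD 3.57) for regions of all lists, a difference of −0.175 points with an SD of 2.85. It was lower on 8 of 12 chromosomes and did not pass the threshold of 0.05 (exact sign-flip permutation over chromosomes, two-sided, p = 0.829, adjusted p = 0.829 over 3 tests). Set against all other merged regions, the share was 4.82 points lower in the in vitro-only regions (difference −4.82, lower on 11 of 12 chromosomes, p = 0.000977, exact). With an outer 40% they also lay below regions of all lists, by −3.13 points (lower on 9 of 12 chromosomes, p = 0.0234, exact). With an outer 10% the difference from regions of all lists was −0.121 points (p = 0.829, exact). The p-values of these other settings were not adjusted. Chromosomes are spatial units and not replicates.

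**Figure D4:**
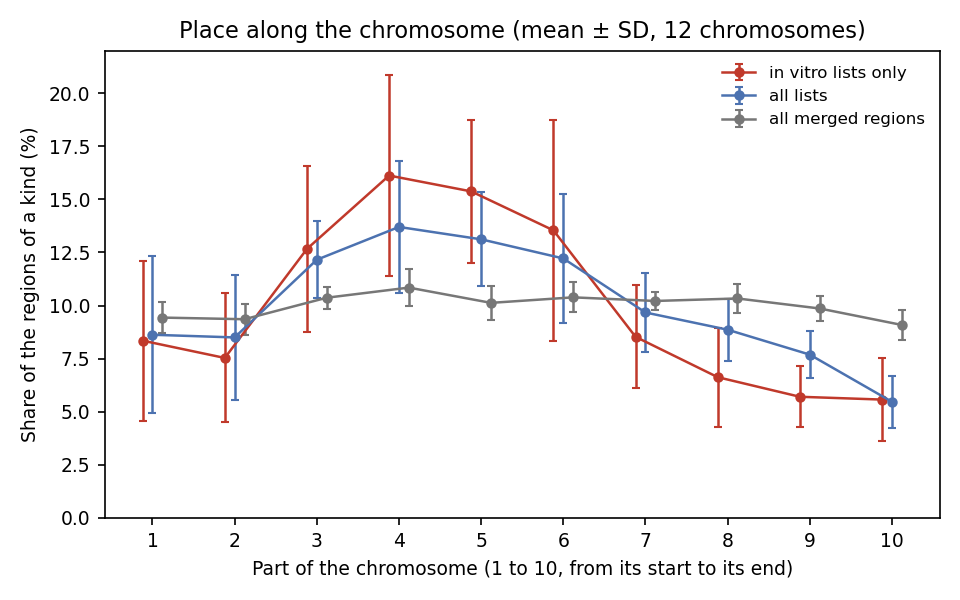
Share of the regions of a kind in each of 10 equal parts of a chromosome (y axis, %), from its start to its end (x axis), as mean ± SD over 12 chromosomes. In vitro-only regions (red) and regions of all lists (blue) are most frequent in parts 3 to 6, while all merged regions (grey) stay near 10%.

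Among the closest neighbours of in vitro-only regions, some kinds had a larger share than among all regions and others a smaller one. The nearest region was one of all lists for 827 (21.1%) of them, while such regions were 9.07% of all regions. It was a BioCyTASQ-only region for 965 (24.7%, against 18.0% of all regions) and a BioTASQ in vivo-only region for 468 (12%, against 25.2%). A region of BioCyTASQ and BioTASQ in vivo was nearest for 751 (19.2%, against 24.6%), and one of the BG4/BioTASQ list alone for 516 (13.2%, against 15.1%). These shares are descriptions, since each kind has its own density along the chromosome and nearness was not tested. The median distance from 1 in vitro-only region to the nearest other one, on either side, was 18.9 kb, and 286 (7.31%) had another within 1 kb. For regions of all lists and their own kind, these values were 11.8 kb and 8.32%.

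Absence from the in vivo list was seldom a matter of a few bases. The nearest in vivo row was a median of 1246 bp away (quartiles 748 and 3131 bp). It was under 0.1 kb away for 32 regions (0.818%) and under 0.5 kb for 469 (12%), and 182 (4.65%) were 10 kb or more from any in vivo row. For all regions without an in vivo row, these shares were 3.77%, 17.4% and 6.31%. Among regions without an in vivo row, those of BioCyTASQ alone had a median of 1558 bp, and those of the BG4/BioTASQ list alone one of 1996.5 bp.

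The in vivo list had been shortened after peaks were called, which bears on what absence means. Of its 57500 rows, 8155 share their peak number with another row, so they are pieces of 1 called peak, and the numbers present were 65.0% of those up to the highest. The BioCyTASQ list showed the same signs to a lesser degree, with 838 of 49898 rows sharing a number and 95.1% of numbers present. In the BG4/BioTASQ list 0 rows shared a number and 99.4% of numbers were present. Peaks are numbered in order along the chromosome, so numbers skipped between neighbouring in vivo rows mark called peaks that the list does not hold. Of the 3907 in vitro-only regions with in vivo rows on both sides, 2242 (57.4%) lay between rows with skipped numbers, against 62.1% of all regions without an in vivo row. The other 1664 lay between consecutive numbers, and 1 lay between pieces of the same peak. A called in vivo peak that is not in the list is thus possible for these 57.4%, and whether it lay at the region cannot be told from the numbers. In 13208 in vivo rows (23.0%) the summit lay beyond the end of the row, so part of the called peak lies outside the row. Such a part could also lie at a region between consecutive numbers, which was not tested. With in vivo rows extended to the summit, the number of in vitro-only regions was 3890. In 57 regions (1.46%) with skipped numbers, both in vivo rows were within 1 kb.

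Taken over gaps of all lengths, skipped numbers were less frequent at in vitro-only regions than at regions of 1 in vitro list. The mean over chromosomes was 57.4% (SD 3.39), against 60.1% (SD 4.08) for BioCyTASQ alone, a difference of −2.69 points with an SD of 2.75 that was negative on 11 of 12 chromosomes (p = 0.00928, same exact test, adjusted p = 0.0139). With rows within 500 bp merged it was −1.36 points and no longer passed the threshold (p = 0.158, exact). Against the BG4/BioTASQ list alone, at 65.4% (SD 2.98), the difference was −8.02 points with an SD of 2.55 and was negative on 12 of 12 chromosomes (p = 0.000488, the smallest this exact test can give, adjusted p = 0.00146). The gaps between in vivo rows differed as well, with medians of 8.91 kb for in vitro-only regions, 9.57 kb for BioCyTASQ alone and 11.7 kb for the BG4/BioTASQ list alone. In the same order, the shares with skipped numbers were 27.9%, 33.1% and 14.8% in gaps under 2 kb. They were 49.0%, 52.5% and 58.4% at 5 to 10 kb, and 85.2%, 85.9% and 90.5% at 20 kb or more. Among gaps under 5 kb the differences were −2.40 (p = 0.258, exact) and 3.0 points (p = 0.197, exact), so neither passed the threshold of 0.05.

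At the edge of the rule, 36 in vitro-only regions rested on an overlap under 10 bp. The smallest overlaps were 1 bp on chromosome 2 (34273491 to 34273817) and at 2 places on chromosome 3 (1873381 to 1873943 and 11435177 to 11435581). The nearest in vivo rows were 4 bp away on chromosome 6 (23438698 to 23439664), 12 bp away on chromosome 6 (19217536 to 19218136) and 14 bp away on chromosome 12 (11936842 to 11937124). Just outside the rule, regions of all lists had an in vivo row that overlapped by 3 bp on chromosome 2 (23425147 to 23426194), 5 bp on chromosome 1 (9545745 to 9546224) and 9 bp on chromosome 4 (33030970 to 33031885).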

How the data were processed

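Peak lists without a header, 4 in number and each of 10 columns ordered as MACS2 narrow peaks, were deposited, under the names of BG4 and of the 3 captures. Tools named in the submitters' processing notes are MACS2 2.1.1, SAMtools 1.5, Picard, BWA and Trim Galore 0.4.4. No source used here gives the genome build, the controls, the thresholds or whether replicates were pooled. The deposited fold enrichment (a ratio), score, −log10 p and −log10 q are the values of the authors' peak caller, and no p-value or q-value of a peak was recomputed. The depth of single libraries is unknown. In all, 26 repeated rows were dropped.

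Rows overlapping by 1 bp or more were merged. A region's strength is that of its strongest row by fold, or by −log10 q where that is given. Fold and −log10 p were solved for pileup and control level with the Poisson model of the caller. The pileup was a whole number for 100% of BioCyTASQ and in vivo rows (within 0.001, or 0.01% of the −log10 p) and for 0.394% of BG4/BioTASQ rows, so levels were not used there. Summit distances leave out BioCyTASQ rows whose summit lies beyond the row. Chromosome length was taken as the largest row end. Differences between kinds of region were tested by exact two-sided permutation of signs (sign flip) over 12 chromosomes (4096 assignments), adjusted by Benjamini-Hochberg over 3 tests. The p-values of these tests in other settings were not adjusted. Merging, pileup and test steps were tested on simulated data. The simulated control levels all lay under 100 fragments, so the recovery of levels of 100 fragments or more was not tested in this way. The named regions are the strongest of each chromosome by mean rank of both folds, the 3 with most rows, the 3 longest, the 3 farthest from an in vivo row and those at the edge of the rule. Regions and rules were chosen with earlier results of these data known. The planned motif search was not run, as sequence was not used here. Software was Matplotlib 3.10.9, SciPy 1.17.1, pandas 2.3.3, NumPy 2.4.6 and Python 3.11.15.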

Additional observations from a re-analysis of the deposited data

How the results depend on the processing

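No paired analysis was possible because each list belongs to a capture group and not to a library, and for the same reason no replicate could be left out. The number of in vitro-only regions, 3913, stayed between 3258 and 4107 in 8 of 12 other settings, of which windows of 200 bp at the summits kept 70.7% and at the centres 75.6% of the original regions. The planned use of the BG4 list in place of BioTASQ in vitro could not differ, since the rows are the same, and is not counted. It was 1493 at 50% reciprocal overlap, 2406 with a −log10 q of at least 5 in every list, 649 with the stronger 50% of each list and 2149 with equal numbers of the strongest rows; of the original regions 38.2%, 61.2%, 6.95% and 30.2% were still held then. Joining the pieces of 1 in vivo peak, a setting chosen after seeing the data, left 3912. Folds below those of regions of all lists were found in these 12 settings too for both lists, with log2 ratios of the medians from −0.09 to −0.38 for BioCyTASQ and −0.06 to −0.32 for BG4/BioTASQ. The difference in the outer 20% turned to 0.486 points at 50% reciprocal overlap (p = 0.645, exact). Without adjustment, the difference passed the threshold at −3.13 points with an outer 40% and at −4.82 points against all other merged regions. For skipped in vivo numbers, the difference from BioCyTASQ alone was −1.36 points with rows within 500 bp merged (p = 0.158, exact) and −2.40 in gaps under 5 kb, and that from the BG4/BioTASQ list alone turned to 3.0 points in such gaps. The cause was not tested.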

Other observations

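The 3 in vitro-only regions farthest from any in vivo row were among those of high control level. On chromosome 10, the regions at 10859782 to 10860257 and 10863340 to 10863682 stood 43.2 and 39.8 kb from the nearest in vivo row. The first had a BioCyTASQ fold of 5.80, in the top 23.6% of its list, and a BG4/BioTASQ fold of 1.81, in the lowest ranks of the other. The second had 1.91 and 4.70, the opposite order, within 4 kb of the first. On chromosome 1, the region at 33533890 to 33534208 stood 37.9 kb away, with folds of 3.57 and 3.23 and summits 2 bp apart. Of the 63 regions of high control level with in vivo rows on both sides, 34 (54.0%) lay between rows with skipped numbers, against 57.4% of the 3844 others, although their gaps were wider, with a median of 51.5 against 8.80 kb. Neither was tested.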
